A study of Mus musculus with 5 samples.

Results

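The genes described here are 8 transporters of monocarboxylates and organic anions: Slc16a1, Slc16a3, Slc16a4, Slc16a7, Slco1a4, Slco1c1, Slco2b1 and Slc22a8. They were chosen by name, through the Ensembl identifiers that carry these symbols on mouse assembly NCBIM37, and are 8 of the 34615 gene symbols in the data. RNA was sequenced from microvascular fragments of the brain, with 1 library per mouse, in 3 wildtype (WT) control mice and 2 mice heterozygous for Ins2-AKITA. All 5 mice were males on a C57BL6 background, between 26 and 38 weeks of age, and no mice were pooled. Ins2-AKITA is a mutated copy of the insulin 2 gene that misfolds in the beta cells of the pancreas, so that the mice are hyperglycemic. The fragments were captured on beads against PECAM1, a surface protein of endothelial cells, and carry pericytes and astrocyte end-feet along with the endothelium. Each value is an FPKM as deposited by the authors for each gene and mouse, that is, a fragment number divided by the length of the gene's exons and by the number of mapped fragments of the library.

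Endothelial cells of the brain are sealed by tight junctions, so polar nutrients, hormones and waste products cross the blood-brain barrier only on carriers. The Slc16a genes encode monocarboxylate transporters (MCTs), which move lactate, pyruvate and ketone bodies together with a proton in either direction. MCT1 (Slc16a1) is the form known from brain endothelium, MCT2 (Slc16a7) is known from neurons and has a high affinity, MCT4 (Slc16a3) is the form of glycolytic cells that export lactate, and the substrate of the protein made from Slc16a4 is poorly known. The Slco genes encode organic anion transporting polypeptides (Oatps). Oatp1a4 carries bile acids, steroid conjugates and many drugs, Oatp1c1 carries the thyroid hormone thyroxine into the brain, and Oatp2b1 carries steroid sulfates and drugs. Slc22a8 encodes the organic anion transporter Oat3, which clears anionic metabolites and drugs from the brain and the cerebrospinal fluid.

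All 8 genes are protein-coding, and their levels are sums over their exons. On NCBIM37, Slc16a1 (ENSMUSG00000032902) lies at chr3:104442591-104462385 on the plus strand and Slc16a4 (ENSMUSG00000027896) at chr3:107094148-107115033 on the plus strand. Slc16a3 (ENSMUSG00000025161) lies at chr11:120809794-120822182 on the plus strand and Slc16a7 (ENSMUSG00000020102) at chr10:124663520-124766019 on the minus strand. Slco1c1 (ENSMUSG00000030235) and Slco1a4 (ENSMUSG00000030237) lie in 1 cluster of Slco1 genes, at chr6:141472907-141518241 on the plus strand and chr6:141753961-141804720 on the minus strand. Slco2b1 (ENSMUSG00000030737) lies apart at chr7:106806314-106859850 on the minus strand, and Slc22a8 (ENSMUSG00000063796) at chr19:8665744-8686324 on the plus strand.

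The promoters of these genes ranged from 39.2% to 76.4% GC, with several between these ends. The 250 bases before the start of 5 members are shown, because they include the monocarboxylate transporters with the most CpG and the barrier transporters with the least. They were taken from RefSeq on GRCm38.p6, a later build than that of the levels, at chr3:104638414-104638663 (plus) for Slc16a1, chr11:120948817-120949066 (plus) for Slc16a3, chr6:141856221-141856470 (minus) for Slco1a4, chr6:141524104-141524353 (plus) for Slco1c1 and chr19:8592932-8593181 (plus) for Slc22a8. Capitals mark matches, on either strand, to 7 short strings of letters that were searched and are named with their counts after the sequences.
Slc16a1: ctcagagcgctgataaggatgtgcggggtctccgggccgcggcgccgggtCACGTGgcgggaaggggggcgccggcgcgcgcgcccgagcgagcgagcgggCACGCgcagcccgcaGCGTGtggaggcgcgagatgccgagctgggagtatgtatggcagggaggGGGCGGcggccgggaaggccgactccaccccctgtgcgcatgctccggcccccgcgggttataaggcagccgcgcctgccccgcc
Slc16a3: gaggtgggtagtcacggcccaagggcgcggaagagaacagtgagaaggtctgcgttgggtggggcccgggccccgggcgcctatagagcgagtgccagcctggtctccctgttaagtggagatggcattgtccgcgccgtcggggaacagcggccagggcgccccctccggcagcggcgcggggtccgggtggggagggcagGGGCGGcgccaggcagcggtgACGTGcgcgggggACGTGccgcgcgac
Slco1a4: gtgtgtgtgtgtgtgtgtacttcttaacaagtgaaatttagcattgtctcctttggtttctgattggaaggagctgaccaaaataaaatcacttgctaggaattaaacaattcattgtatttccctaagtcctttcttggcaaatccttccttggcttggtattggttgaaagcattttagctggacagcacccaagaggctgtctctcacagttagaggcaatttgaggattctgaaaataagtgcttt
Slco1c1: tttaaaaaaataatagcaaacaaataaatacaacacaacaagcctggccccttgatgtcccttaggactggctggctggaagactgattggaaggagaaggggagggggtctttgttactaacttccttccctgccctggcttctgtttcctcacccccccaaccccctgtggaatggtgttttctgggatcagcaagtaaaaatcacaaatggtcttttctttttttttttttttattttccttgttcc
Slc22a8: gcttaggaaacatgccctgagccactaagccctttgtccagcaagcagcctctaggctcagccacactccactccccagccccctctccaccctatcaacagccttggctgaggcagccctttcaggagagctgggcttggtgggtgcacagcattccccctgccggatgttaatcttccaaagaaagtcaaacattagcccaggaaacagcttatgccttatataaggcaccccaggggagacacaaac

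The Slc16a1 promoter was 76.4% GC with 37 CpG, and that of Slc16a3 was 73.6% GC with 29 CpG. Over all 32851 promoters of the same length, the median was 52.4% GC with quartiles of 45.2% and 61.2%, and the median CpG number was 6 with quartiles of 2 and 16. The Slco1a4 and Slco1c1 promoters held 39.2% and 42.8% GC and 0 CpG, which is under the lower quartile on both measures. Slc22a8 had 55.2% GC and 1 CpG, and Slc16a4 48.0% GC and 2 CpG. The 3 promoters of Slco2b1 held 52.8% to 58.0% GC and 2 to 4 CpG. The string CACGTG, the palindromic E-box, which also contains ACGTG, was present in 1 of the 9 promoters of 7 members, that of Slc16a1, and in 6.02% of all promoters. ACGTG, the core of the element bound by hypoxia-inducible factors, was present for Slc16a1 and Slc16a3 and in 16.6% of all promoters. GGGCGG, the core of the GC box, was also found for Slc16a1 and Slc16a3, and in 32.7% of all promoters. GCGTG was found for Slc16a1 and in 28.2% of all. TATAAA was found for Slc16a4 and in 12.4% of all. CCGGAA was found in 1 of the 3 promoters of Slco2b1 and in 12% of all, and CTTTGA in none of the 9 and in 13.8% of all. These are matches of letters within a fixed window. They say nothing of binding, and a string that was not found may lie outside the window. Slc16a7 had no entry.

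How many fragments lay behind the values was worked out from the smallest steps between FPKM values of a mouse. It came to between 1127638 and 2851728 per mouse, with between 96.48% and 97.41% of the low values within 0.05 of a whole number of fragments. Small and ribosomal RNA genes made up between 58.0% and 96.7% of the summed FPKM in WT against 89.6% and 40.6% in Ins2-AKITA mice, so no scaling to equal sums was applied. The 10 defining markers of endothelium were detected in all mice, with a geometric mean of 40.6, 59.4 and 36.8 FPKM in WT against 38.7 and 29.4 in Ins2-AKITA mice. Astrocyte, neuron and oligodendrocyte markers were present too, and the sums of the 7 neuron markers spanned 743.8 to 821.8 FPKM in WT and 740.8 to 890.5 FPKM in Ins2-AKITA mice. The libraries therefore hold RNA of more cell types than the vessel wall, and the levels below are levels of the mixture. In such bulk samples, fewer cells of a type and less RNA per cell cannot be told apart.

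Slco1a4 and Slco1c1 were the most abundant members in every mouse. Slco1a4 measured 81.8, 132 and 75.4 FPKM in WT replicates 1, 2 and 3 and 83.6 and 73.9 FPKM in Ins2-AKITA replicates 1 and 2. WT replicate 2 stood above the other 4 mice, which lay close together. Its mean was 96.4 ± 31.0 FPKM in WT (SD, n = 3) and 78.8 ± 6.84 FPKM in Ins2-AKITA mice (SD, n = 2), and over all mice it was number 862 of the 34615 symbols by mean FPKM.

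Slco1c1, the thyroxine carrier, measured 26.6, 51.0 and 44.7 FPKM in WT against 46.1 and 35.8 FPKM in Ins2-AKITA mice. The groups overlapped, with WT replicates at both the low and the high end. The group means were nearly equal, at 40.8 ± 12.6 FPKM in WT (SD, n = 3) and 40.9 ± 7.32 FPKM in Ins2-AKITA mice (SD, n = 2). Slco1a4 exceeded Slco1c1 in 5 of 5 mice, by 1.69 to 3.07 times.

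Slco2b1 was the one member whose groups did not overlap. It measured 22.1, 18.5 and 15.2 FPKM in WT against 11.6 and 12.7 FPKM in Ins2-AKITA mice, so both Ins2-AKITA mice lay below all WT mice. The means were 18.6 ± 3.47 FPKM (SD, n = 3) and 12.1 ± 0.798 FPKM (SD, n = 2), a ratio of 1.53. From the longest transcript, about 107, 101 and 180 fragments lay behind the WT values and about 54 and 68 behind the Ins2-AKITA values. The 95% Poisson interval of counting error was 13.1 to 17.6 FPKM for WT replicate 3 and 9.85 to 16.1 FPKM for Ins2-AKITA replicate 2, so the nearest mice of both groups were not separated beyond counting error.

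Slc16a1, the lactate and ketone body carrier of the endothelium, measured 9.17, 17.5 and 11.3 FPKM in WT against 15.2 and 14.1 FPKM in Ins2-AKITA mice. Both Ins2-AKITA values lay inside the WT range. The means were 12.7 ± 4.33 FPKM in WT (SD, n = 3) and 14.6 ± 0.802 FPKM in Ins2-AKITA mice (SD, n = 2). Slc16a1 has 1 annotated transcript, and the values corresponded to 45, 97 and 135 fragments in WT against 72 and 76 in Ins2-AKITA mice. The counting interval of WT replicate 1, 6.69 to 12.3 FPKM, lay below that of WT replicate 2, 14.2 to 21.3 FPKM, so these WT mice differed by more than counting error.

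Slc22a8, the gene of Oat3, measured 6.48, 15.6 and 9.09 FPKM in WT against 11.5 and 6.93 FPKM in Ins2-AKITA mice. As for Slc16a1, the WT mice spanned the whole range. The means were 10.4 ± 4.73 FPKM (SD, n = 3) and 9.24 ± 3.26 FPKM (SD, n = 2).

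The remaining MCT genes were low. Slc16a4 measured 2.88, 8.71 and 5.0 FPKM in WT against 4.98 and 3.36 FPKM in Ins2-AKITA mice, on about 8 to 33 fragments per mouse. Slc16a7, the neuronal form, measured 5.55, 3.00 and 4.71 FPKM in WT against 6.17 and 5.02 FPKM in Ins2-AKITA mice, on about 14 to 48 fragments. Both genes overlapped between the groups, and WT replicate 2 was the highest mouse for Slc16a4 and the lowest for Slc16a7. Slc16a3, the lactate exporter of glycolytic cells, measured 5.95, 0.989 and 0.928 FPKM in WT against 2.40 and 2.08 FPKM in Ins2-AKITA mice, on about 5 to 29 fragments. Here WT replicate 1 was 6.41 times the lowest mouse, its counting interval of 3.98 to 8.54 FPKM lay above that of WT replicate 2 at 0.320 to 2.31 FPKM, and the Ins2-AKITA mice fell between the WT mice.

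**Figure D1:**
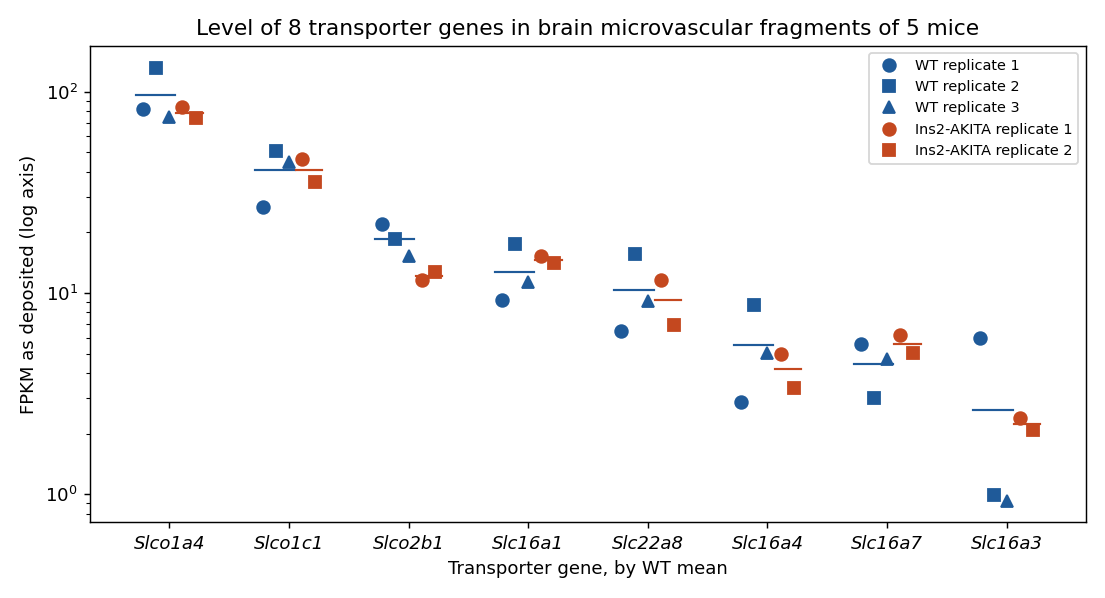
FPKM of each transporter gene (log axis) in the 3 WT mice (blue) and the 2 Ins2-AKITA mice (orange), with the group means as short lines and genes ordered by WT mean. Slco1a4 lies between 73.9 and 132 FPKM in all mice and Slc16a3 between 0.928 and 5.95 FPKM, and Slco2b1 is the one gene whose groups do not overlap.

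By WT mean the order was Slco1a4, Slco1c1, Slco2b1, Slc16a1, Slc22a8, Slc16a4, Slc16a7 and Slc16a3. The steps from Slco1a4 to Slco1c1 and from Slco1c1 to Slco2b1 held in 5 of 5 mice, and the ranges over the mice did not overlap. Slco2b1 and Slc16a1 were not ordered beyond their spread: Slco2b1 was above Slc16a1 in 3 of 5 mice, all of them WT, and below it in both Ins2-AKITA mice. Slc16a1 lay above Slc22a8, and Slc22a8 above Slc16a4, in 5 of 5 mice although their ranges overlapped. Slc16a4 was above Slc16a7 in 2 of 5 mice, and their places were exchanged when the median of the 5 mice was used, so this pair was not ordered either. For scale, Slc2a1, the glucose carrier of the barrier, measured 273, 167 and 137 FPKM in WT against 143 and 106 FPKM in Ins2-AKITA mice, which is 7.5 to 29.8 times the Slc16a1 level of the same mouse.

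Within each gene family the members were few among many. Of the other 10 Slc16a genes, 8 had a mean of at least 1 FPKM, and Slc16a11 was the highest, at 48.4, 50.3 and 17.5 FPKM in WT against 31.5 and 14.9 FPKM in Ins2-AKITA mice. Slc16a1 had a mean of 13.4 FPKM over the 5 mice. Of the other 12 Slco genes, 4 had a mean of at least 1 FPKM, and the highest was Slco3a1 with a mean of 13.1 FPKM. Of the other 16 Slc22a genes, 7 reached 1 FPKM, Slc22a17 was the highest with a mean of 87.3 FPKM, and 3 were listed at 0 in all mice.

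**Figure D2:**
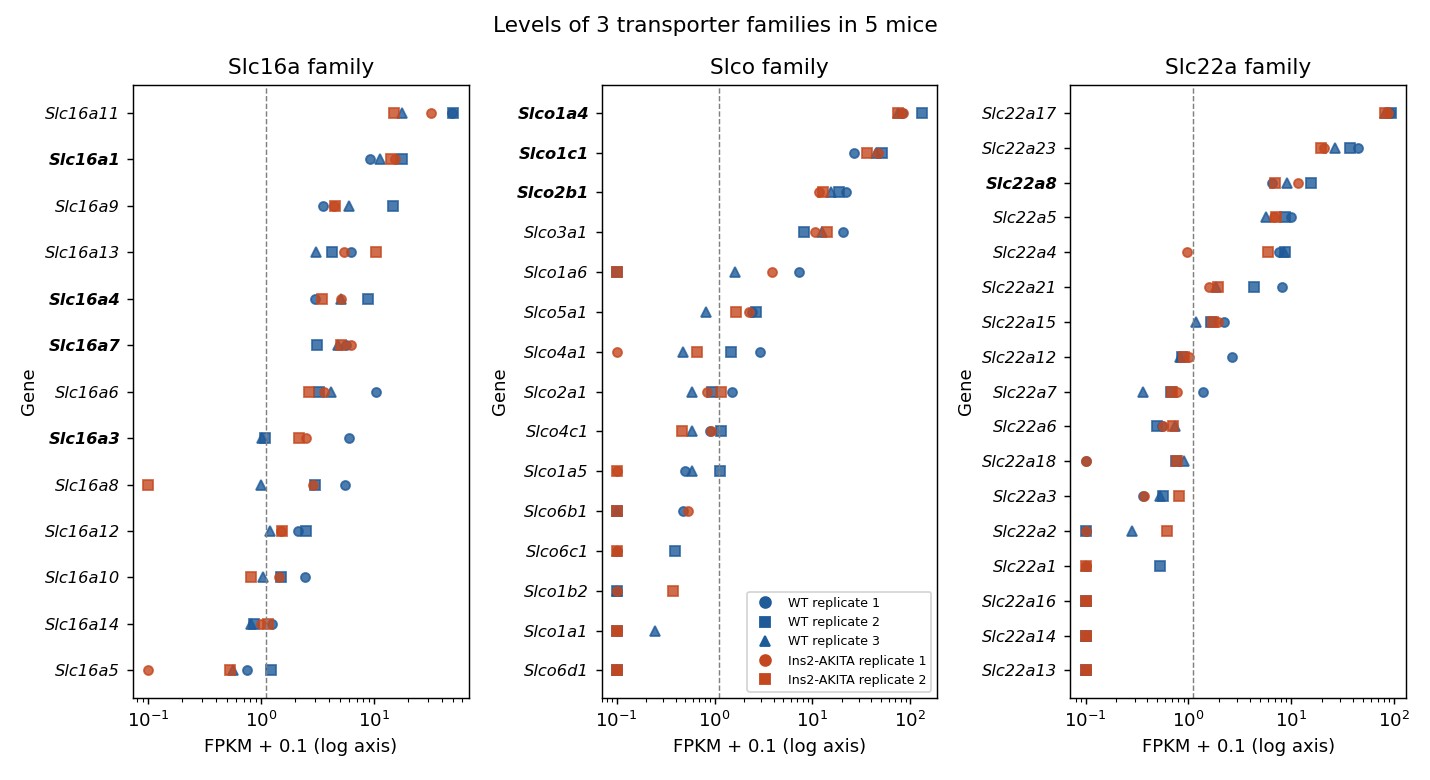
FPKM + 0.1 (log axis) of the Slc16a, Slco and Slc22a genes reported here in the 5 mice, ordered by mean, with the members in bold and a dashed line at 1 FPKM. The members Slco1a4, Slco1c1 and Slco2b1 are the 3 highest Slco genes, whereas Slc16a1 stands below Slc16a11, and Slc22a8 below Slc22a17 and Slc22a23.

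The high Slco1 genes lay beside genes listed at or near 0. Between Slco1c1 and Slco1a4 on chromosome 6 lies Slco1b2, a transporter of the liver, which was listed at 0 in 4 of 5 mice and at 0.275 FPKM in the other. Beyond Slco1a4, Slco1a1 was listed at 0 in 4 of 5 mice, with 0.144 FPKM in the other, and Slco1a5 did not exceed 1.04 FPKM. Slco1a6 was uneven, at 7.25, 0 and 1.5 FPKM in WT against 3.75 and 0 FPKM in Ins2-AKITA mice. The Slco1a genes are close copies of each other, and reads that match several of them may have been assigned differently between mice, so the Slco1a4 and Slco1a6 levels are uncertain to that extent. On chromosome 19, Slc22a6, the gene of Oat1, begins 6.16 kb after the end of Slc22a8, and it measured 0.399 to 0.646 FPKM. Slc22a8 exceeded it by 11.3 to 39.3 times.

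The comparison of genotypes asks whether the RNA of the fragments differed between Ins2-AKITA and WT mice, and no member passed it. It was made with limma on log2(FPKM + 1) over the 16286 symbols with a mean of at least 1 FPKM, which all 8 members passed, with Benjamini-Hochberg adjustment at 0.05. Of the 8 members, 0 were lower and 0 higher at an adjusted p under 0.05, where 0.0246% and 0% of all tested genes were lower and higher. At an unadjusted p under 0.05 the members also numbered 0 in either direction, against 2.93% of all genes lower and 1.53% higher. One of the 8 members, Slco2b1, had both Ins2-AKITA mice below all WT mice, against 10.3% of all genes, and 0 had them above, against 9.24%. A share of 1 in 8 is near that background. The difference of the mean log2 values, Ins2-AKITA minus WT, was negative for 4 members and positive for 4, and its median of -0.03 was that of all genes tested, -0.03.

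The intervals show what size of difference these 5 mice leave room for. For Slco2b1 the log2 difference was -0.56 (SE 0.24, 95% interval -1.15 to 0.02, limma adjusted p = 0.896). The unadjusted p of limma for Slco2b1 was 0.0549, an exact permutation test, two-sided over the 10 ways of drawing 2 of the 5 mice, gave p = 0.2, and no gene can fall under 0.1 in this design. For Slco1a4 the log2 difference was -0.25, with a 95% interval from -0.92 to 0.43. Slco1c1 differed by 0.05, between -0.71 and 0.80, so changes of under 1.6 times in either direction are inside its interval. For Slc16a1 the difference was 0.24, between -0.50 and 0.99, and for Slc16a7 0.31, between -0.53 and 1.14. The low or uneven genes had wider intervals, from -1.11 to 0.88 for Slc22a8, from -1.36 to 0.86 for Slc16a4 and from -1.50 to 1.73 for Slc16a3. The limma adjusted p of these 7 lay between 0.902 and 0.987. None of these values shows that the levels were equal.

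**Figure D3:**
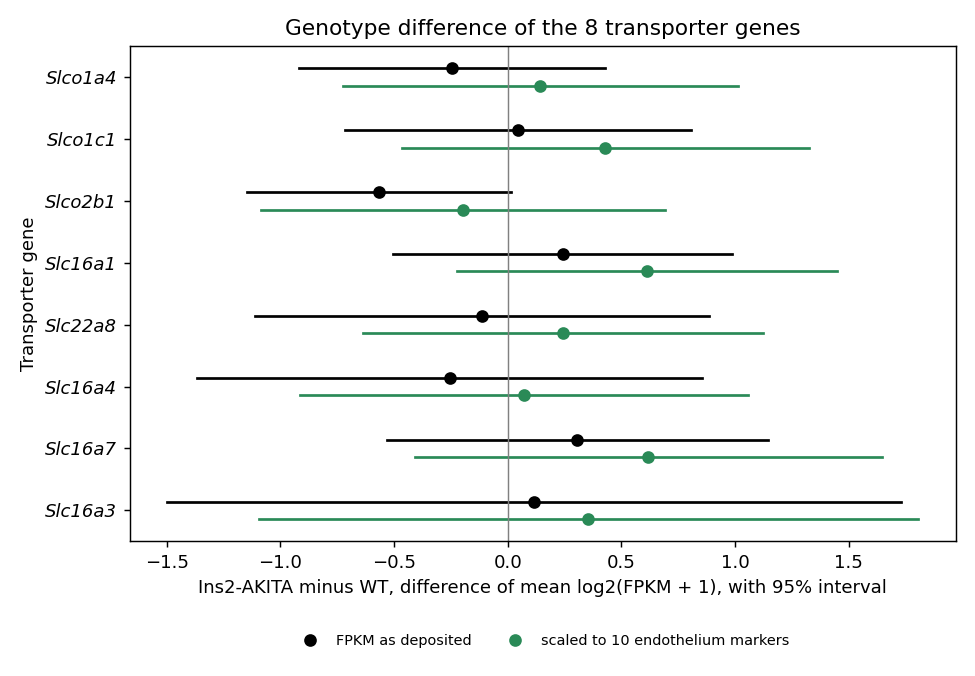
Difference of the mean log2(FPKM + 1), Ins2-AKITA minus WT, for each transporter gene (points) with its 95% interval from limma (lines), on the deposited FPKM (black) and after scaling each mouse to 10 endothelium markers (green). Every interval on either scale includes 0, and the interval of Slco2b1 on the deposited scale ends at 0.02.

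Some cell type marker lists leaned one way between the groups, although no marker passed adjustment. Signs were mixed in others, positive for 3 of 8 pericyte, 3 of 6 oligodendrocyte, 4 of 7 neuron and 5 of 6 microglia markers. All 8 astrocyte markers had a higher mean log2 value in Ins2-AKITA mice, with a median log2 difference of 0.49, and their summed FPKM spanned 2212 to 3000 in WT and 3418 to 4028 in Ins2-AKITA mice. Their lower end was Fgfr3 at 0.19, and their upper end was Aldh1l1, a folate enzyme of astrocytes, at 1.03 (limma adjusted p = 0.804). Aldh1l1 measured 37.9, 28.5 and 41.6 FPKM in WT against 75.3 and 72.1 FPKM in Ins2-AKITA mice without overlap, and it was the astrocyte marker with an unadjusted limma p under 0.05. The glutamate carrier Slc1a2 was the most abundant, with a mean of 1595 FPKM. Of the 10 endothelium markers, 9 had a lower mean log2 value, with a median log2 difference of -0.44, from -0.61 for Emcn to 0.04 for Kdr, and FPKM sums of 442 to 761 in WT and 368 to 491 in Ins2-AKITA mice. The endothelial cadherin Cdh5 was the endothelium marker with an unadjusted limma p under 0.05 (adjusted p = 0.896), and no endothelium or astrocyte marker was at 0 in any mouse. All 5 smooth muscle markers had a lower mean log2 value too, with a median log2 difference of -0.61, from -0.98 for Cnn1 to -0.44 for Des, and FPKM sums of 219.5 to 269 in WT and 138 to 175 in Ins2-AKITA mice. Of these 5, 3 had an unadjusted limma p under 0.05, where 2.93% of all tested genes were lower at that threshold. The 3 were the contractile genes Tagln (-0.70), Myh11 (-0.61) and Acta2 (-0.60), each with a limma adjusted p of 0.896. Acta2, smooth muscle actin, was the most abundant at 116, 143 and 124 FPKM in WT against 96.9 and 72.1 FPKM in Ins2-AKITA mice. The 7 markers of choroid plexus epithelium, a tissue known for both Slc22a8 and Slco1c1, had sums of 41.7 to 122 in WT and 44.3 to 77.8 in Ins2-AKITA mice. The part of these markers in the Slco2b1 difference was not tested.

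The members were therefore also set against the endothelium of the same mouse. The value was the member's log2(FPKM + 1) minus the mean log2(FPKM + 1) of the 10 endothelium markers. On this scale Slco1a4 was the steadiest member, at 1.00, 1.14 and 1.01 in WT against 1.09 and 1.3 in Ins2-AKITA mice. Its SD over the 5 mice was 0.12, against 0.34 for log2(FPKM + 1) alone. The SD was also smaller on this scale for Slc16a4, Slco2b1 and Slc22a8, and it was larger for Slc16a1 (0.39 against 0.34), Slc16a3 (0.91 against 0.75), Slc16a7 (0.63 against 0.32) and Slco1c1 (0.39 against 0.36). Slco2b1 measured -0.85, -1.63 and -1.22 in WT against -1.66 and -1.15 in Ins2-AKITA mice, so its groups overlapped on this scale. Slc16a1 did the opposite, at -2.03, -1.71 and -1.62 in WT against -1.29 and -1.01 in Ins2-AKITA mice, with both Ins2-AKITA mice above all WT mice. On the deposited FPKM, 9.24% of all tested genes separated in that direction. The share on the endothelium scale was not counted, and the deposited share cannot stand in for it, since this scaling shifts genes upward. The difference of 0.63 for Slc16a1 had an exact permutation p of 0.1, the smallest this design allows, and with limma after the same scaling it was 0.61 with an adjusted p of 0.790. Scaling to endothelium moved the median of all genes to 0.31, and relative to that median Slc16a1 was higher by 0.30 and Slco2b1 was at -0.50. Without this scaling, Slc16a1 was at 0.28 and Slco2b1 at -0.53 relative to the median. The direction of 3 members, Slc16a4, Slco1a4 and Slc22a8, turned from negative to positive under this scaling, at 0.072, 0.14 and 0.24. Relative to the shifted median these 3 stayed negative, at -0.24, -0.16 and -0.06. On the deposited FPKM the same 3 were at -0.22, -0.21 and -0.08 relative to the median there.

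The spread among the WT mice had a pattern that the members shared in part. WT replicate 2 was the highest of the 5 mice for 5 of the 8 members, Slc16a1, Slc16a4, Slco1a4, Slco1c1 and Slc22a8, and it was also the highest for 7 of the 10 endothelium markers. WT replicate 1 was the lowest mouse for 4 members, Slc16a1, Slc16a4, Slco1c1 and Slc22a8, and the highest for Slc16a3 and Slco2b1. As deviations of log2(FPKM + 1) from the mean over 5 mice, WT replicate 2 stood 0.59 above for Slco1a4, 0.67 for Slc22a8 and 0.77 for Slc16a4. The endothelium markers stood 0.56 above and the choroid plexus markers 0.74 above in the same mouse. Without WT replicate 2, the log2 difference of Slco1a4 moved from -0.25 to 0.0012, that of Slc22a8 from -0.11 to 0.20 and that of Slc16a4 from -0.25 to 0.081. Without WT replicate 1, Slco1c1 moved from 0.05 to -0.23 and Slc16a3 from 0.12 to 0.73, and without WT replicate 3 Slc16a3 moved to -0.20. Slco2b1 was lower in Ins2-AKITA mice whichever mouse was left out.

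**Figure D4:**
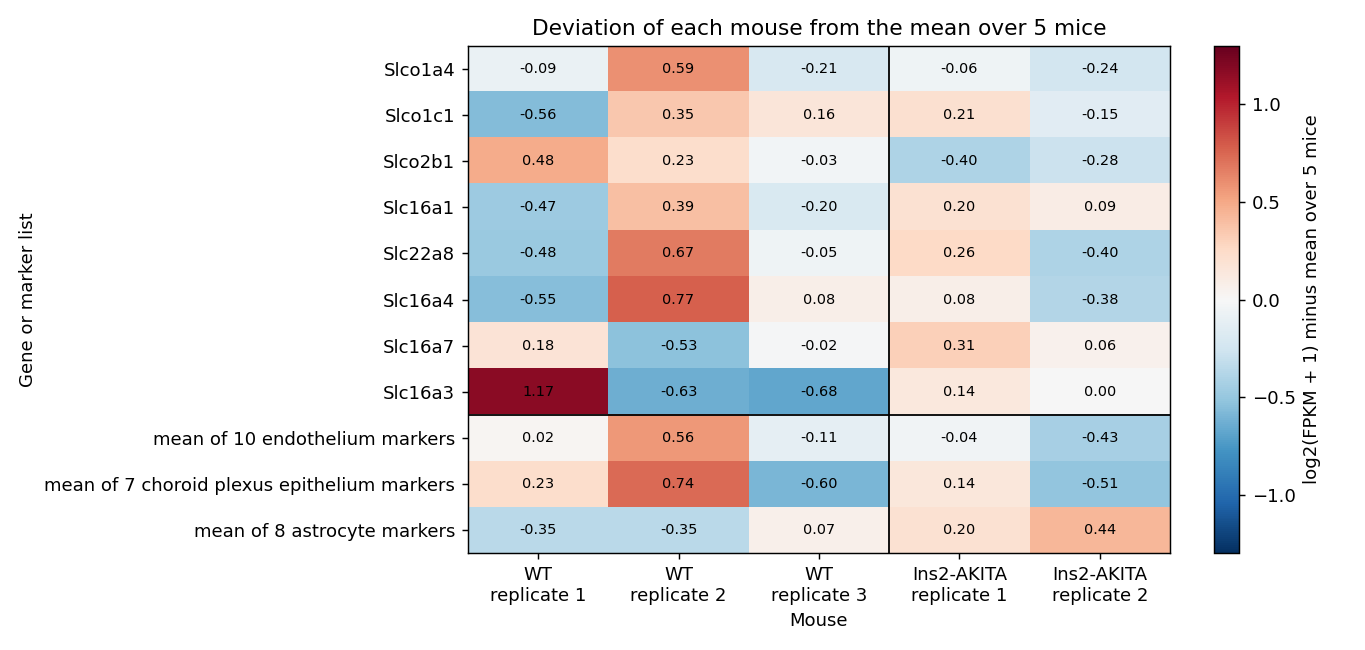
Deviation of log2(FPKM + 1) in each mouse from the mean over the 5 mice, for the 8 transporter genes (upper rows) and for the mean of 3 marker lists (lower rows), with red above and blue below the mean. WT replicate 2 is above the mean for 6 transporter genes and for the endothelium markers (0.56), and Slco2b1 is below the mean in both Ins2-AKITA mice.

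Pairs of members were compared within each mouse, where the scale of the library cancels. The ratio of Slc16a1 to Slco2b1 was 0.415, 0.947 and 0.742 in WT against 1.32 and 1.11 in Ins2-AKITA mice, and the groups did not overlap. Its log2 difference was 0.87 with an exact permutation p of 0.2. Among single genes tested, 10.3% separated lower and 9.24% higher on the deposited FPKM, and the share among ratios was not computed. The ratio of Slco1a4 to Slco1c1, by contrast, was 3.07, 2.59 and 1.69 in WT against 1.81 and 2.07 in Ins2-AKITA mice, with a log2 difference of -0.30 and an exact permutation p of 0.5. The ratio of Slc16a1 to Slc16a7 was 1.65, 5.83 and 2.39 in WT against 2.46 and 2.80 in Ins2-AKITA mice (exact permutation p = 1.0). These were 3 of 6 such ratios computed, and a ratio shows unequal levels without saying which gene differed.

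The genes around the MCTs in lactate handling had small differences. Of 11 genes, 10 were tested, 0 had an unadjusted p under 0.05, 7 were positive and 3 negative, and the median log2 difference was 0.20. Bsg, which encodes basigin, the chaperone that takes MCT1 and MCT4 to the membrane, was the highest of them at 250, 510 and 319 FPKM in WT against 370 and 292 FPKM in Ins2-AKITA mice. Like Slc16a1 it was highest in WT replicate 2 and lowest in WT replicate 1. Ldhb, the lactate dehydrogenase subunit of oxidative tissues, was at the upper end of the list with 0.39 (limma adjusted p = 0.896), and the pyruvate dehydrogenase kinase Pdk2 at the lower end with -0.16.

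Ketone bodies are the other fuel that MCT1 carries. Of the 6 genes of ketone body use, 5 were positive, with a median of 0.14. Oxct1, the mitochondrial enzyme that activates acetoacetate for use as fuel, measured 81.5, 110 and 119 FPKM in WT against 141 and 158 FPKM in Ins2-AKITA mice. Both Ins2-AKITA mice lay above all WT mice, as they did for 2 of the 6 genes and for 9.24% of all genes tested, with a log2 difference of 0.55 and an unadjusted limma p under 0.05 that did not survive adjustment (adjusted p = 0.896).

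In thyroid hormone handling, in which Slco1c1 takes part, differences went both ways. Of 12 genes, 11 were tested, 5 were positive and 6 negative, 0 had an unadjusted p under 0.05, and the median was -0.03 (0.37 with endothelium scaling and 1.42 with TPM). Slc7a5, an amino acid carrier that also takes thyroid hormone, was at the lower end with -0.59 (limma adjusted p = 0.896), at 48.4, 56.9 and 34.0 FPKM in WT against 31.0 and 28.8 FPKM in Ins2-AKITA mice. Crym, which binds the hormone in the cytosol, was at the upper end with 0.56. Ttr, the thyroxine carrier made by the choroid plexus, was the most abundant at 669 to 1993 FPKM in WT and 960 to 1790 FPKM in Ins2-AKITA mice.

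In the families themselves, the other 8 tested Slc16a genes had a median log2 difference of -0.43, from -0.89 for Slc16a8 to 0.69 for Slc16a13, with 0 at an unadjusted p under 0.05. The other 4 tested Slco genes had a median of -0.20, from -0.89 for Slco4a1 to 0.06 for Slco5a1, with 0 at an unadjusted p under 0.05. Of the other 7 tested Slc22a genes, 2 had an unadjusted limma p under 0.05, both lower and neither past adjustment, where 2.93% of all tested genes were lower at that threshold. These were Slc22a4, a carnitine and ergothioneine transporter, at 7.57, 8.67 and 8.35 FPKM in WT against 0.871 and 5.90 FPKM in Ins2-AKITA mice, and Slc22a23, a transporter of unsettled substrate, at 44.8, 37.2 and 26.9 FPKM in WT against 21.0 and 19.3 FPKM in Ins2-AKITA mice. Both had a log2 difference larger than that of any member, at -1.35 and -0.79. The median of the other Slc22a genes was -0.25, and their upper end was Slc22a15 at 0.08.

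The genes whose profile over the 5 mice was most like that of the members were found among 10467 protein-coding genes with a mean of at least 5 FPKM, by the root mean square (RMS) of the difference of the log2 deviations. Those nearest to the average of the 5 members above 5 FPKM were Vps36, Chsy3, Kcnk10, Slc6a6 and Rcor3, with an RMS from 0.0352 to 0.0617. Slc6a6, the taurine carrier, measured 51.3, 80.8 and 53.0 FPKM in WT against 65.1 and 53.2 FPKM in Ins2-AKITA mice. The nearest to Slc16a1 were Hs3st1 and Unc93b1, to Slco1a4 Far2 and Pgm1, to Slco1c1 Gnai3 and Med10, and to Slc22a8 Elavl4 and Syne2. Slco2b1 was nearest to Lingo3 and Myo18a, and Myo18a measured 179, 148 and 136 FPKM in WT against 103 and 108 FPKM in Ins2-AKITA mice. With 5 mice and this many candidates, close profiles describe these libraries.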

How the data were processed

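RNA of brain microvascular fragments was sequenced by the authors after ribosomal RNA depletion, mapped to NCBIM37 with TopHat2 2.0.4, freed of duplicates with Picard 1.92 and tested with Cufflinks 2.2.1. They deposited FPKM per gene and mouse; the tool that wrote the per-mouse values is not given in the sources used here. Removal of duplicates can lower abundant genes, and reads of close paralogs may be split.

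Of 37982 identifiers, 37197 were matched to GENCODE vM1 on NCBIM37, and rows with 1 symbol were summed. The test was limma 3.58.1, run in R 4.3.3 on symbols averaging 1 FPKM or more (trend, two-sided, genotype only, threshold 0.05), with log2(FPKM + 1), which understates changes of low genes. The fit was tested on simulated data. Python 3.11.15 with scipy 1.17.1 gave exact permutation tests. Fragment numbers are estimates, from the longest transcript where a gene has several, and intervals cover counting error only.

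Groups came from the labels. The WT mice are described as littermate controls without saying which mice share a litter, so the p-values take the mice as independent without a check. In limma, the variance of a gene was also drawn toward a trend over all tested genes. The members, the gene lists and the tests were chosen with earlier results of these data known. Beside the members and Slc2a1, the text names, of each list it describes, genes from those with an unadjusted p under 0.05, both ends and the most abundant gene, and by the RMS rule the 5 nearest genes to the members' average and 2 nearest to each member with a mean of at least 5 FPKM. Slco1b2, Slco1a1, Slco1a5, Slco1a6 and Slc22a6 were named as family members or neighbours after their values had been seen, and single genes of the lists are not reported here. Alternatives were a pseudocount of 0.1, no filter or a mean of at least 5, TPM, median-ratio, quantile and endothelium scaling, no trend, the highest row per symbol, protein-coding genes, the replicate block and leaving out each mouse.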

Additional observations from a re-analysis of the deposited data

How the results depend on the processing

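No member passed an adjusted p of 0.05 under any alternative run, and the adjusted limma p ranged from 0.268 to 1.00. Of 125 member values under the alternatives, 109 kept their direction and 16 turned. Slc16a1 and Slc16a7 kept a positive and Slco2b1 a negative difference in all alternatives that tested them, Slco2b1 between -0.69 and -0.20, with TPM as the exception for Slco2b1. Slco2b1 reached an unadjusted limma p under 0.05 with the filter at a mean of 5 and without WT replicate 3 (0.0331, the lowest).

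TPM moved the median of all genes to 1.07 and that of the members to 1.02, and gave 0.64 for Slc16a4, 1.40 for Slco1a4, 0.86 for Slco2b1 and 1.01 for Slc22a8. Relative to that median Slco2b1 was at -0.21, Slc16a4 at -0.43, Slc22a8 at -0.06 and Slco1a4 at 0.33. Slc16a7, positive under TPM at 1.04, was at -0.03 relative to the same median. Endothelium scaling gave 0.072 for Slc16a4, 0.14 for Slco1a4 and 0.24 for Slc22a8, each below the median of all genes at 0.31. With each mouse left out in turn, Slc16a3 ranged from -0.20 (without WT replicate 3; -0.18 without WT replicate 2) to 0.73, Slc16a4 from -0.58 to 0.081 (without WT replicate 2), Slco1a4 from -0.40 to 0.0012 (without WT replicate 2), Slco1c1 from -0.23 (without WT replicate 1; -0.13 without Ins2-AKITA replicate 1) to 0.23, and Slc22a8 from -0.44 to 0.22 (without Ins2-AKITA replicate 2; 0.20 without WT replicate 2). By the median of 5 mice, 6 of 8 members kept their place in the order.

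Over all genes, 4 were called lower and 0 higher. The lower count was 30 with TPM, 7 with endothelium scaling, 2 with a mean of at least 5, no filter or no trend, 1 among protein-coding genes and 2 to 10 when a mouse was left out. The higher count was 58 with TPM, 1 with endothelium scaling or no trend and 0 to 10 when a mouse was left out (10 without Ins2-AKITA replicate 2). Where 1 Ins2-AKITA mouse remained, it was assumed to vary like the WT mice. Apart from the fewer genes or mice these settings use, the cause was not tested.

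With the replicate number as a block, 5 genes were called lower and 0 higher, Slc16a3 turned to -0.20 and Slco2b1 was at -0.69 (limma adjusted p = 0.603). Deviations of same-numbered mice correlated at 0.0512 and -0.0343, and with 2 Ins2-AKITA mice these deviations are mirror images, so a pairing cannot be shown. Genes with few fragments, Slc16a3 above all with about 5 in WT replicate 2, are limited by depth.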

Other observations

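WT replicate 1, the mouse with the highest Slc16a3 and the lowest Slc16a1, Slc16a4, Slco1c1 and Slc22a8, also had the highest Lcn2. Lcn2, an acute-phase gene among the venous markers, measured 41.0 FPKM in that mouse, 2.71 and 1.72 FPKM in the other WT mice, and 0 and 1.13 FPKM in Ins2-AKITA mice. Vegfc, at the lower end of the 6 arterial markers with a log2 difference of -1.22, measured 5.17, 22.2 and 12.4 FPKM in WT and 3.21 and 5.72 FPKM in Ins2-AKITA mice (limma adjusted p = 0.896). The capillary markers, which mark the part of the tree where most exchange takes place, had a median log2 difference of -0.17 over 4 genes, and the largest of them, Spock2, measured 172 to 217 FPKM in WT and 174 and 184 FPKM in Ins2-AKITA mice. All 5 red cell markers had a lower mean log2 value in Ins2-AKITA mice, with a median log2 difference of -1.09, and the hemoglobin gene Hba-a2, the one with an unadjusted limma p under 0.05, measured 11.6, 12.7 and 7.14 FPKM in WT against 2.99 and 5.30 FPKM in Ins2-AKITA mice (limma adjusted p = 0.896).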
